A study of Mus musculus with 9 samples.

Results

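*Scaf4*, *Paxbp1*, *Urb1* and *Btg3* are 4 genes for RNA processing, ribosome biogenesis and mRNA decay that lie in the chromosome 16 segment duplicated in Dp1Tyb mice, a model of Down syndrome. They were chosen by their functions and position, with earlier results of these data known. They are 4 of the 43629 genes in the count table. Of the genes of the duplicated region, 89 passed the filter on low counts. All 4 passed it. RNA sequencing of poly(A) RNA was carried out on mouse embryonic fibroblast (MEF) cultures, 1 culture per embryo, from 4 wild-type (WT) and 5 Dp1Tyb littermate E14.5 embryos. Their strain is labelled C57BL/6J.129P2, and per the methods of the study the mice had been backcrossed to C57BL/6JNimr. Dp1Tyb embryos carried Dp(16Lipi-Zbtb21)1TybEmcf, a duplication from *Lipi* to *Zbtb21*, and WT embryos had no duplication, so that genes of the region were present in 3 and 2 copies respectively. Whole embryos without head and viscera were dissociated and the cells passaged before RNA was taken, so a culture can hold other cells than fibroblasts. The question was how far the RNA of these genes followed their extra copy, and whether the genes they work with, which lie elsewhere in the genome, differed as well.

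All 4 genes act on RNA, each at another step. Scaf4 binds the phosphorylated C-terminal domain of RNA polymerase II and, together with its paralogue Scaf8, keeps the polymerase from ending transcripts early at internal polyadenylation sites. Paxbp1 was described as a protein that links the transcription factors Pax3 and Pax7 to a histone methylation complex holding Wdr5 in muscle precursor cells, and it belongs to the same GCF family as Gcfc2, a protein of spliceosome disassembly. Urb1 is a nucleolar protein needed to process the precursor RNA of the large ribosomal subunit. Btg3 belongs to the BTG and TOB family of antiproliferative proteins, which bring the Cnot7 and Cnot8 deadenylases of the CCR4-NOT complex to mRNAs and so speed their decay.

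In the GENCODE M21 annotation of GRCm38, all 4 genes are protein-coding genes on the minus strand of chromosome 16. *Btg3* (ENSMUSG00000022863) lies at chr16:78332637-78377192, 2.79 Mb from the first base of the duplicated region. The other 3 lie close together, 14.69 to 15.47 Mb from it, *Scaf4* (ENSMUSG00000022983) at chr16:90225680-90284503, *Urb1* (ENSMUSG00000039929) at chr16:90751527-90810413 and *Paxbp1* (ENSMUSG00000022974) at chr16:91014037-91044543. Summed over all their exons, they are 4014, 5546, 8190 and 5508 bases long, in the same order. *Urb1* overlaps no other gene. *Scaf4* overlaps the end of *Sod1*, which is on the opposite strand, without sharing exon bases. *Btg3* shares 695 exon bases with *Cxadr* and *Paxbp1* shares 1142 with 4930404I05Rik, both on the opposite strand. Whether the counting used strand, and how it treated reads over exons of overlapping genes, is not given in the sources used here. Reads over the shared bases could therefore have been misassigned or left out for *Btg3* and for *Paxbp1*. 4930404I05Rik itself had at most 2 counts in any culture.

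The duplication copies each gene together with its start site, so the sequences just before those start sites are shown here. They come from the RefSeq promoter windows of GRCm38.p6, which run from 250 bases before a start site to 50 bases after it, and windows were found for all 4 genes. Each line reads 5′ to 3′ on the minus strand, and capitals mark matches on either strand to one of the short motifs searched. For *Scaf4*, *Urb1* and *Btg3* the line holds the 150 bases that end just before a start site, chr16:90284504-90284653, chr16:90810414-90810563 and chr16:78376811-78376960. The *Btg3* window belongs to the second of its RefSeq start sites and lies in an intron of a longer transcript. For *Paxbp1*, where GENCODE places an untranslated region over these bases, only the 30 bases around its NRF1 core at chr16:91044495-91044524 are given.
*Scaf4*: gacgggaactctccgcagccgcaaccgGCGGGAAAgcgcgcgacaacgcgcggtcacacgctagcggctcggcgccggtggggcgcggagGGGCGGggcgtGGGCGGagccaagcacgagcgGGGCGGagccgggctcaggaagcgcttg
*Urb1*: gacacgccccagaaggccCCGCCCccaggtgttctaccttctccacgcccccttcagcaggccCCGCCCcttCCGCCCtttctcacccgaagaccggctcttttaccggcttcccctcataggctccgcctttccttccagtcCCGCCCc
*Btg3*: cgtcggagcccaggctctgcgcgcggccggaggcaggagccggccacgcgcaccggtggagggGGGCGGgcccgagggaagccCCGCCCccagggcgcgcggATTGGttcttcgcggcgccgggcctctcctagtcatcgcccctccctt
*Paxbp1*: gagagcccagGCGCATGCGCaatcgaggcg
The motifs searched were the E-box CACGTG, the CCAAT box CCAAT, the GC box GGGCGG, the ETS core CCGGAA, the NRF1 core GCATGCGC, the E2F sites TTTCGCGC, TTTGGCGC and TTTCCCGC, the YY1 core AAGATGGCG and the TATA box TATAAA, on both strands. Matches may overlap, and the 2 NRF1 cores of *Paxbp1* share most of their bases. The GC box, which Sp1-type factors bind, was found for all 4 genes, though not in the first *Btg3* window, which is not shown. It occurred 3 times for *Scaf4*, 4 times for *Urb1*, 2 times in the *Btg3* window shown and 1 time for *Paxbp1*, and 35.7% of all 32851 windows hold it. The E2F site before *Scaf4* is TTTCCCGC, and 1.84% of windows hold at least 1 of the 3 E2F sites searched. The NRF1 core before *Paxbp1* occurs in 2.71%, and the ETS core just after the *Urb1* start site and just after the *Btg3* start site shown in 14.9%. The CCAAT box of both *Btg3* windows occurs in 37.4%. The E-box (7.15% of windows), the YY1 core (1.4%) and the TATA box (13.6%) were found in none of the windows of the 4 genes. GC content was 73% for *Scaf4*, 67.7% for *Paxbp1* and 64.7% for *Urb1*. It was 75.7% for the *Btg3* window shown and 57.7% for the first *Btg3* window. The median over all windows was 52.7%. These matches describe letters only, and nothing in these data measured binding.

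The cultures had between 24804539 and 30009361 counted reads each. Values of single genes below are normalised read counts, scaled by TMM factors to the mean library of the 9 cultures, and fold changes come from edgeR's quasi-likelihood test on the counts with Benjamini-Hochberg adjustment over all 14567 genes tested. At an adjusted p below 0.05, 24 genes were higher in Dp1Tyb, which is 0.165% of the genes tested, and 0 were lower, with 456 at an unadjusted p below 0.05. Of the 89 tested genes of the duplicated region, 22 were called higher, or 24.7%. All Dp1Tyb values lay above all WT values for 0.686% of all genes and for 51.7% of those of the region. The labels name WT 1 and Dp1Tyb 1 with the prefix MEF1 and the other 7 cultures with MEF2. These prefixes were read here as a first and a second set of cultures. What they stand for is not given in the sources used here, so the values within the second set and with the set as a covariate rest on that reading.

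*Scaf4* was higher in Dp1Tyb with the smallest spread of the 4 genes, and it was the 1 gene among them that passed the test across all genes. Its normalised counts were 974, 929, 913 and 909 in WT cultures 1 to 4, and 1385, 1248, 1172, 1339 and 1242 in Dp1Tyb cultures 1 to 5. All Dp1Tyb cultures lay well above all WT cultures. The means were 931 ± 29.8 (SD, n = 4) and 1277 ± 84.6 (SD, n = 5), a 1.37-fold difference with a 95% interval of 1.24 to 1.52. On the log2 scale *Scaf4* rose by 0.46 with a standard error of 0.066 (edgeR adjusted p = 0.0395). The exact permutation test over the 126 ways to label the cultures gave p = 0.0079, two-sided, the smallest it can give. Within the second set the log2 difference was 0.45 (p = 0.029, the smallest possible over 35 relabellings, exact permutation test), and in the first set it was 0.51 with 1 culture per genotype. The edgeR call held without Dp1Tyb 2 (adjusted p = 0.0488) and was lost without any of the other 8 cultures, between 0.0523 without Dp1Tyb 3 and 0.211 without WT 3. Over all 18 alternatives the adjusted p lay between 5.93e-07 and 0.211, while the log2 difference stayed between 0.43 and 0.48. The call thus moved with the cultures included, and the size of the difference did so much less.

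*Urb1* was 1.65-fold higher in Dp1Tyb, with a 95% interval of 1.30 to 2.08. Its normalised counts were 591, 365, 431 and 382 in WT cultures 1 to 4, and 872, 693, 702, 686 and 686 in Dp1Tyb cultures 1 to 5. The genotypes did not overlap, and in both of them culture 1, from the first set, was the highest. The WT mean was 442 ± 103 (SD, n = 4) and the Dp1Tyb mean 728 ± 81.1 (SD, n = 5). The log2 difference of 0.72 ± 0.15 (SE) did not pass the test across all genes (edgeR adjusted p = 0.256), and the exact permutation test gave p = 0.0079. Within the second set the log2 difference was 0.82 (exact permutation p = 0.029), and in the first set 0.56. With the culture set as a covariate, it was 0.76 with a standard error of 0.077 and passed (edgeR adjusted p = 0.0133), where again 0.165% of genes were called higher. It also passed without WT 1 (edgeR adjusted p = 0.0386) and in DESeq2 with its beta prior (adjusted p = 0.00319), which called 0.271% of genes higher. Over the 18 alternatives the adjusted p ranged from 0.00296 to 0.947, the latter without WT 3.

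*Paxbp1*, the most abundant of the 4 genes, had a fold change of 1.47 with a 95% interval of 1.18 to 1.82 that did not pass the test across all genes (edgeR adjusted p = 0.579). Its normalised counts were 1798, 1157, 1401 and 1409 in WT cultures 1 to 4, and 2108, 1638, 2307, 2335 and 2182 in Dp1Tyb cultures 1 to 5. The genotypes overlapped through a single pair, since Dp1Tyb 2 lay below WT 1. The WT mean was 1441 ± 265 (SD, n = 4), the Dp1Tyb mean 2114 ± 281 (SD, n = 5) and the log2 difference 0.55 ± 0.14 (SE). The exact permutation test of this gene alone gave p = 0.024. Within the second set the log2 difference was 0.67 (exact permutation p = 0.057), and in the first set it was 0.23. None of the 18 alternatives gave an adjusted p below 0.05, the lowest being 0.062.

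*Btg3* had the largest fold change of the 4 genes and the widest spread, 1.72-fold with a 95% interval of 1.23 to 2.40 (edgeR adjusted p = 0.749). Its normalised counts were 408, 742, 550 and 577 in WT cultures 1 to 4, and 863, 1438, 749, 961 and 870 in Dp1Tyb cultures 1 to 5. The lowest Dp1Tyb culture, 749, was just above the highest WT culture, 742, so the genotypes touched without overlapping. Culture 2 was the highest in both genotypes. The means were 569 ± 137 (SD, n = 4) and 976 ± 269 (SD, n = 5), with a log2 difference of 0.78 ± 0.22 (SE) and an exact permutation p of 0.016. The log2 difference was 0.66 within the second set (exact permutation p = 0.057) and 1.08 in the first. None of the 18 alternatives gave an adjusted p below 0.05, the lowest being 0.12. *Cxadr*, which codes for the coxsackievirus and adenovirus receptor and shares exon bases with *Btg3* on the other strand, had a log2 difference of 0.59 ± 0.19 (SE, edgeR adjusted p = 1). The effect of the shared bases on the *Btg3* count was not tested.

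**Figure D1:**
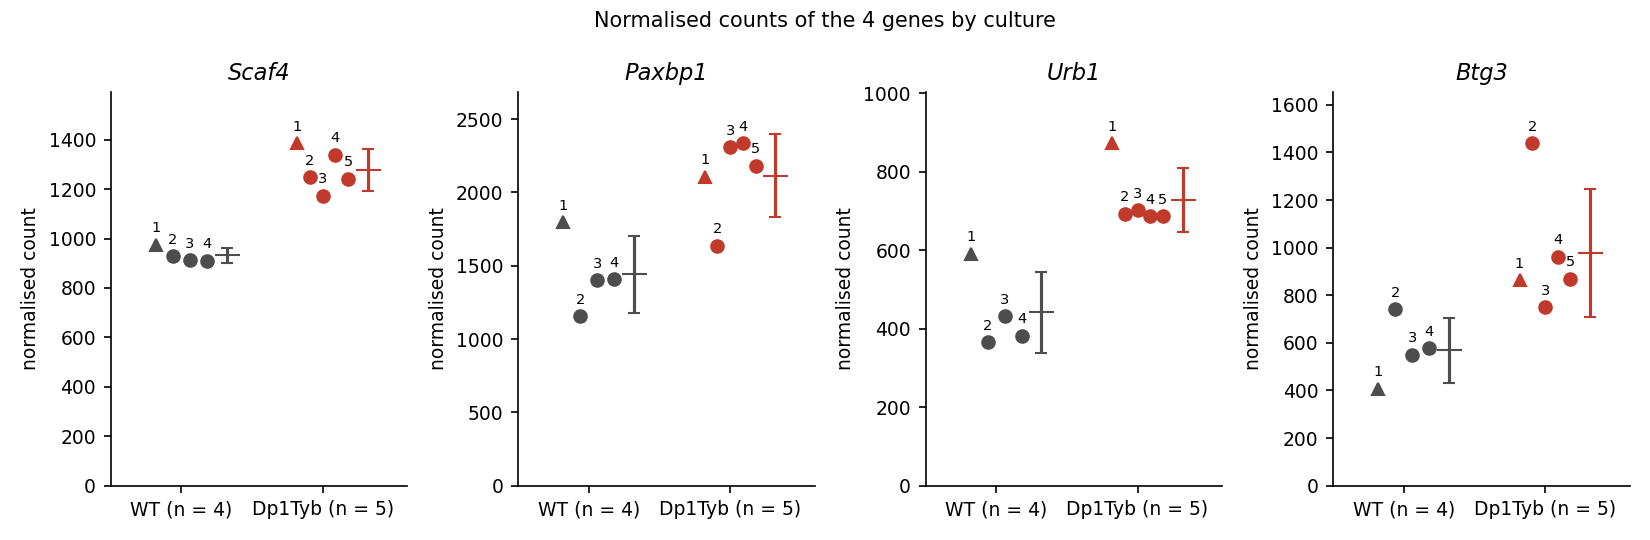
Normalised read counts of *Scaf4*, *Paxbp1*, *Urb1* and *Btg3* (vertical axes, from 0) in each WT (grey) and Dp1Tyb (red) culture, numbered by replicate, with triangles for the first set of cultures, circles for the second, and bars for mean ± SD. The genotypes are apart for *Scaf4*, *Urb1* and *Btg3* (742 against 749 at the closest), and overlap for *Paxbp1* through Dp1Tyb 2 at 1638 and WT 1 at 1798.

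The 95% intervals of all 4 genes held 1.5-fold, the ratio of 3 copies to 2. They also held much of the range around it, so *Btg3* could lie anywhere from 1.23-fold to 2.40-fold, whereas *Scaf4* was bounded between 1.24-fold and 1.52-fold. By fold change, *Btg3* ranked 13, *Urb1* 15, *Paxbp1* 52 and *Scaf4* 67 among the 89 tested genes of the region, whose median log2 difference was 0.585. The median over all genes tested was 0.003. *Scaf4* thus passed the test with the lowest fold change of the 4 genes, at a coefficient of variation of 3.2% in WT and 6.62% in Dp1Tyb, against 24.1% and 27.6% for *Btg3*. Differences between the 4 genes in their fold change were tested as log2 ratios between 2 of them, over all 6 pairs. The pair that differed most, *Scaf4* and *Btg3*, had a log2 difference of -0.32 (exact permutation p = 0.3). *Scaf4* against *Urb1* gave -0.29 (exact permutation p = 0.095), and -0.38 within the second set (exact permutation p = 0.029, the smallest possible). The other 4 pairs had log2 differences between -0.21 and -0.03, with exact permutation p-values between 0.28 and 0.92.

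**Figure D2:**
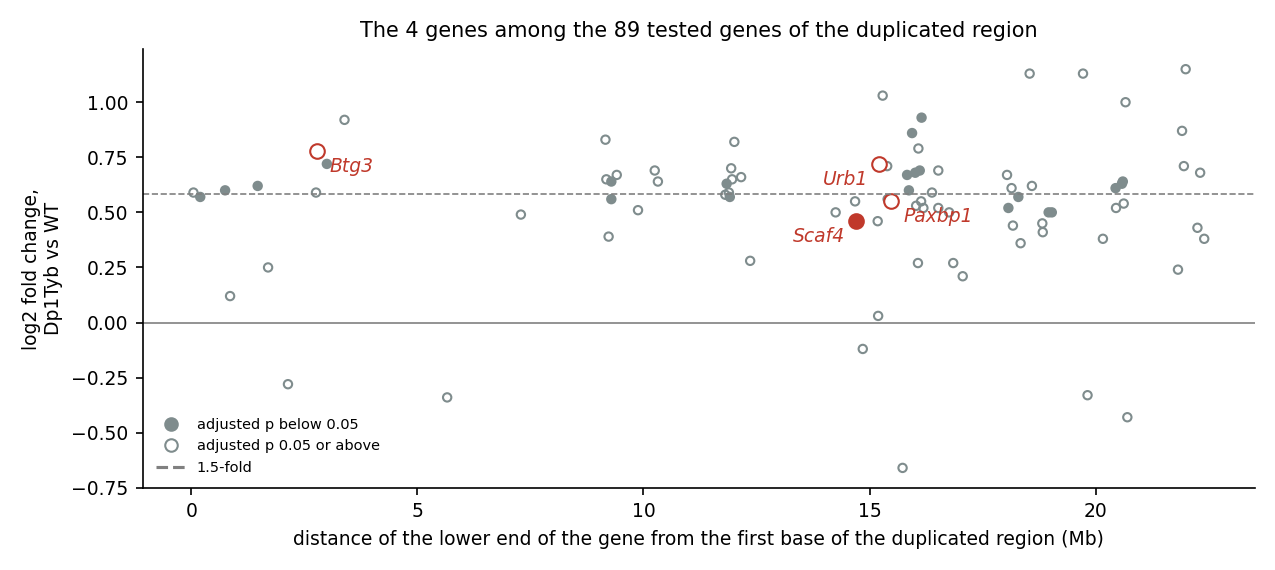
Log2 fold change, Dp1Tyb vs WT (vertical axis), of the 89 tested genes of the duplicated region by distance of their lower end from its first base in Mb (horizontal axis), with the 4 genes in red and filled points for genes at an adjusted p below 0.05. *Btg3* at 2.79 Mb (0.78) and *Urb1* at 15.21 Mb (0.72) lie above the dashed 1.5-fold line, *Paxbp1* at 15.47 Mb (0.55) and *Scaf4* at 14.69 Mb (0.46) below it.

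The nearest tested genes on each side show how fold changes varied within the same stretch of the duplication. *Scaf4* lies between *Tiam1*, which codes for an activator of Rac (log2 difference 0.50 ± 0.12, SE), and *Hunk*, which codes for a kinase (-0.12 ± 0.48, SE). *Sod1*, the superoxide dismutase gene that overlaps it, had a log2 difference of 0.55 ± 0.1 (SE). *Paxbp1* lies 2.73 kb from *Synj1*, which codes for a phosphatase of synaptic vesicle recycling (0.56 ± 0.09, SE), and 225 kb from *Olig1*, a transcription factor gene of the oligodendrocyte lineage with about 10.7 normalised counts in WT (-0.66 ± 0.49, SE). *Urb1* lies between Gm17518 (0.03 ± 0.25, SE) and *Eva1c* (1.03 ± 0.51, SE), both with means under 100 counts. None of these 7 genes passed the test in edgeR (adjusted p between 0.0597 for *Synj1* and 1). DESeq2 by default, which called 39 genes of the duplicated region, called *Synj1* (adjusted p = 1.45e-05) and *Sod1* (adjusted p = 0.000936) among them. On the side of *Btg3* toward the rest of the region, *D16Ertd472e* rose by 0.72 ± 0.11 on the log2 scale (SE, edgeR adjusted p = 0.0415). On its other side the noncoding gene *Mir99ahg* had a log2 difference of 0.25 ± 0.33 (SE, edgeR adjusted p = 1). The 95% intervals of *Tiam1*, *Hunk*, *Sod1*, *Synj1*, *Eva1c*, *D16Ertd472e* and *Mir99ahg* held 1.5-fold. Those of Gm17518 and *Olig1* did not, at WT means of 9.68 and 10.7 normalised counts. Most of these values therefore do not show that fold changes differed along the stretch.

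In RPKM, read counts scaled by library total and exon length, *Paxbp1* had the highest level of the 4 genes and *Urb1* the lowest. In WT cultures the levels were 10.1 ± 2.18 RPKM for *Paxbp1*, 6.46 ± 0.393 for *Scaf4*, 5.43 ± 1.17 for *Btg3* and 2.09 ± 0.558 for *Urb1* (SD, n = 4). In Dp1Tyb cultures they were 14.3 ± 2.01, 8.6 ± 0.679, 9.04 ± 2.33 and 3.32 ± 0.451 (SD, n = 5). *Scaf4* and *Btg3* were within their spread of each other in both genotypes and exchanged places. Over all cultures, *Paxbp1* stood at the 75.4 percentile of tested genes, *Scaf4* at 63.5, *Btg3* at 62.8 and *Urb1* at 39.1.

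Each of the 4 genes works with products of genes outside the duplication. Of 12 such partner genes, 11 could be tested, and edgeR and DESeq2 each called 0 of them, with 0 at an unadjusted edgeR p below 0.05. Over all tested genes outside the duplicated region, edgeR called 0.0138% and DESeq2 by default 0.178%, so 0 of 11 is near the background. *Scaf8*, the paralogue of *Scaf4*, had 1775 ± 120 normalised counts in WT and 1741 ± 102 in Dp1Tyb (SD), a log2 difference of -0.03 ± 0.069 (SE). *Urb2*, whose product binds Urb1 in yeast, had a log2 difference of 0.10 ± 0.11 (SE), and *Nol8* and *Ddx51*, for other nucleolar proteins of the large subunit, 0.08 ± 0.099 and 0.14 ± 0.086. The deadenylase genes *Cnot7* and *Cnot8* were at 0.04 ± 0.062 and -0.04 ± 0.063. For *Paxbp1*, *Gcfc2* was at 0.03 ± 0.16, *Tfip11* and *Dhx15*, for the G-patch protein and helicase that take the spliceosome apart, at 0.06 ± 0.062 and 0.04 ± 0.094, and *Wdr5* at 0.05 ± 0.075. *Pax3* had 41 ± 8.38 normalised counts in WT and 31.5 ± 15.9 in Dp1Tyb (SD), and *Pax7* had 2 counts in all 9 cultures together, at or under the floor of 3 counts. RNA of the Pax proteins from which Paxbp1 takes its name was therefore scarce or not detectable at this depth.

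**Figure D3:**
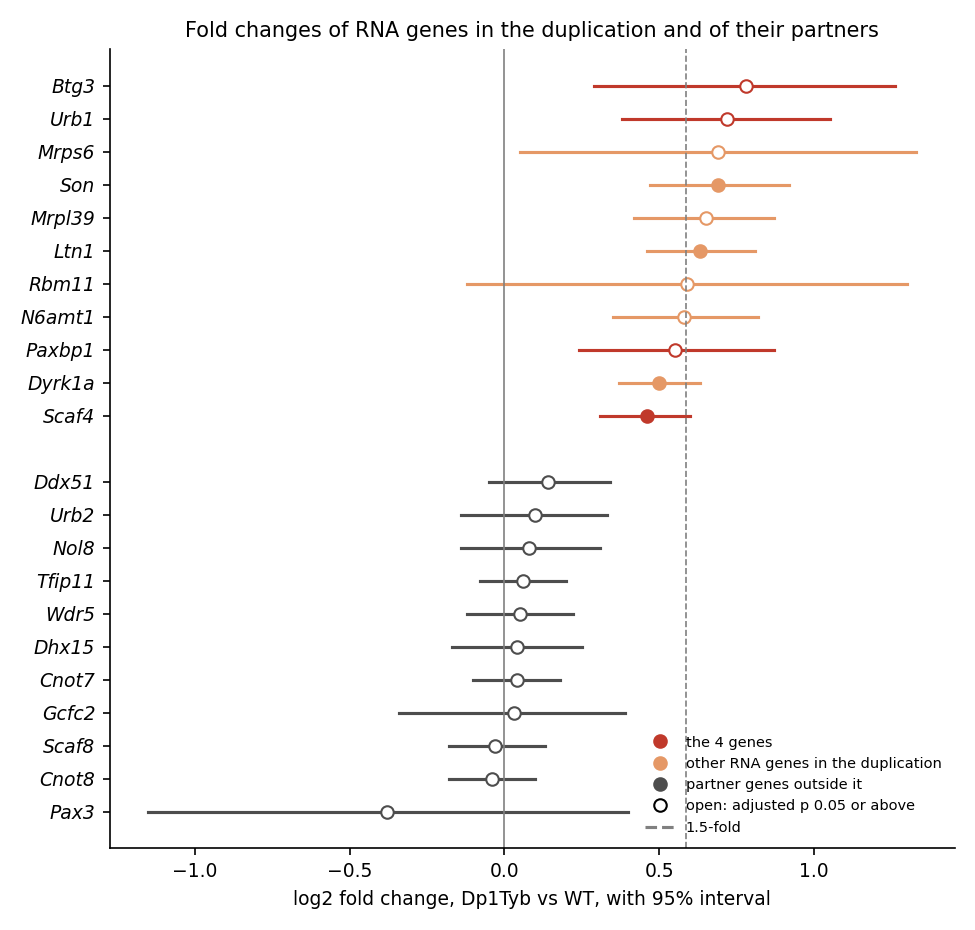
Log2 fold change, Dp1Tyb vs WT, with 95% interval (horizontal axis) for the 4 genes (red), the 7 other RNA genes of the duplication (orange) and 11 partner genes outside it (grey), with filled points at an adjusted p below 0.05. All 11 genes of the duplication lie between 0.46 and 0.78, near the dashed 1.5-fold line, and the partners between -0.38 for *Pax3* and 0.14 for *Ddx51*.

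Ratios within a culture set each gene against 1 partner, which removes the depth of the library from the comparison. *Scaf4* to *Scaf8*, as a ratio of RPKM, was 0.53, 0.585, 0.556 and 0.562 in WT cultures 1 to 4, and 0.77, 0.768, 0.756, 0.814 and 0.787 in Dp1Tyb cultures 1 to 5. The genotypes were far apart, with a 1.40-fold difference (exact permutation p = 0.0079). *Btg3* to *Cnot7* was between 0.411 and 0.82 in WT (median 0.602) and between 0.834 and 1.45 in Dp1Tyb (median 0.892), 1.66-fold apart without overlap (exact permutation p = 0.0079). *Urb1* to *Urb2* was between 0.389 and 0.613 in WT (median 0.47) and between 0.586 and 0.889 in Dp1Tyb (median 0.752), 1.57-fold apart (exact permutation p = 0.024). *Paxbp1* to *Tfip11* was between 0.759 and 1.19 in WT (median 0.913) and between 0.994 and 1.6 in Dp1Tyb (median 1.37), 1.41-fold apart (exact permutation p = 0.032). In both of these ratios Dp1Tyb 2 lay below WT 1. Within the second set of cultures the log2 ratios differed by 0.46 for *Scaf4*, 0.61 for *Paxbp1*, 0.71 for *Urb1* and 0.59 for *Btg3*, with exact permutation p-values of 0.029, 0.057, 0.029 and 0.057. When cultures were left out in turn, the ratios of *Scaf4* and *Btg3* stayed below 0.05 each time. The ratio of *Urb1* reached 0.057 without Dp1Tyb 1, 3, 4 or 5, and that of *Paxbp1* lay at or above 0.054 without any culture other than WT 1 and Dp1Tyb 2 (exact permutation tests).

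**Figure D4:**
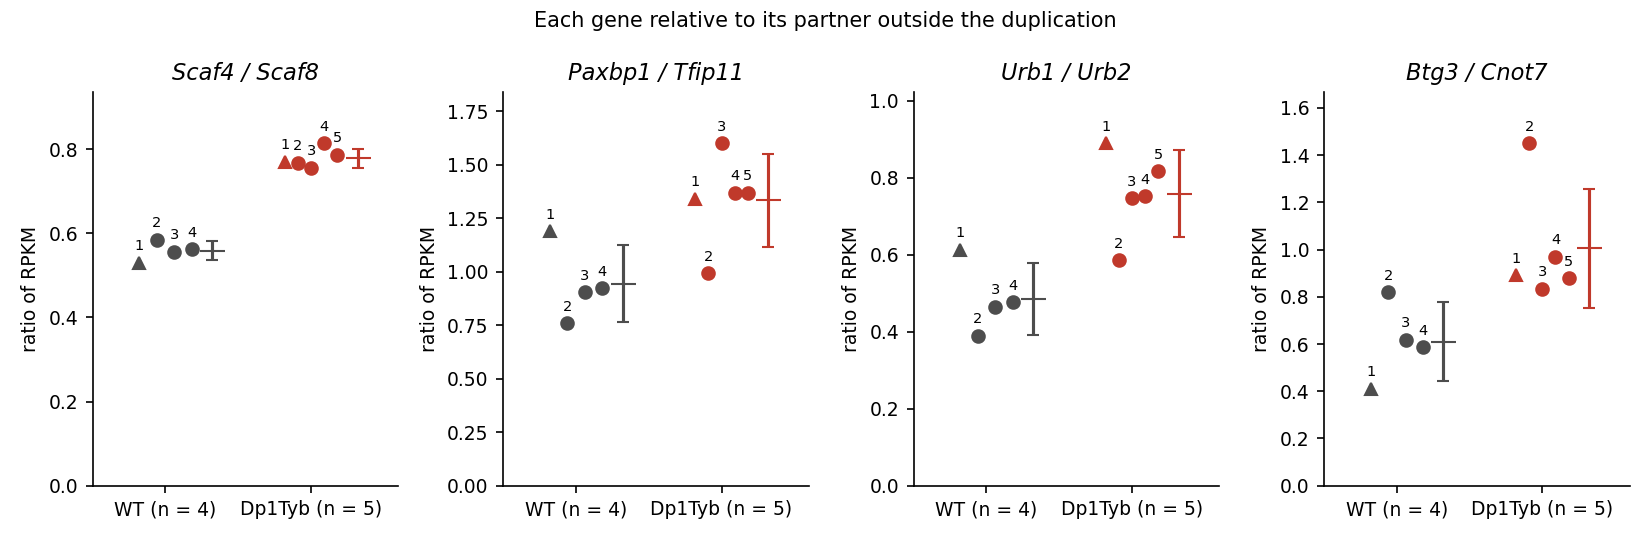
Ratio of RPKM of each gene to its partner outside the duplication (vertical axes, from 0) in each WT (grey) and Dp1Tyb (red) culture, numbered by replicate, with triangles for the first set of cultures, circles for the second, and bars for mean ± SD. *Scaf4* to *Scaf8* separates the genotypes most widely for its spread, 0.53 to 0.585 against 0.756 to 0.814.

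The list of RNA genes of the duplication also takes in genes for translation and for proteins that act on RNA factors. Among its 7 other genes, 3 passed the test. *Son*, for a large nuclear speckle protein needed for splicing, rose by 0.69 ± 0.1 on the log2 scale (SE, edgeR adjusted p = 0.0395). *Ltn1*, for the ubiquitin ligase that clears stalled nascent chains from ribosomes, rose by 0.63 ± 0.078 (SE, edgeR adjusted p = 0.0161), and *Dyrk1a*, for a kinase with splicing factors among its substrates, by 0.50 ± 0.058 (SE, edgeR adjusted p = 0.012). The mitochondrial ribosomal protein genes *Mrpl39* and *Mrps6* were at 0.65 ± 0.1 and 0.69 ± 0.29 (SE, edgeR adjusted p = 0.0505 and 1). *N6amt1*, for the methyltransferase of a translation termination factor, was at 0.58 ± 0.11, and *Rbm11*, for a tissue-restricted splicing regulator with a WT mean of 12.8 normalised counts, at 0.59 ± 0.32. With *Scaf4*, 4 of the 11 RNA genes of the duplication passed, beside 22 of the 89 tested genes of the region (24.7%). Over all genes tested, 0.165% were called higher. The median log2 difference of the 11 RNA genes was 0.635, beside 0.585 for the region. With so few genes, their count does not set RNA genes apart from the rest of the region. The number of RNA genes that passed was 0 without WT 2, WT 3 or Dp1Tyb 5, and 1 without WT 4 or Dp1Tyb 4.

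The wider RNA pathways around the 4 genes, counted without genes of the duplication, held no gene that passed the test in edgeR or DESeq2, and none had an unadjusted edgeR p below 0.05. Outside the region edgeR called 2 of 14478 genes, so counts of 0 in lists of 21 to 50 genes are near the background. For transcript end processing and the polymerase II C-terminal domain, around *Scaf4*, 15 of 35 genes had a log2 difference above 0 (median -0.008), from *Rprd2* (-0.17 ± 0.13, SE) to *Cstf2* (0.14 ± 0.099). For spliceosome disassembly and late splicing, around *Paxbp1*, the count was 12 of 21 (median 0.022), from *Crnkl1* (-0.08 ± 0.053) to *Snrnp200* (0.09 ± 0.093). For the CCR4-NOT complex, deadenylation and mRNA decay, around *Btg3*, it was 23 of 46, from *Zfp36*, for an mRNA-destabilising protein (-0.33 ± 0.25), to *Ttc37* (0.16 ± 0.098). Over all 14567 genes, 7422 had a log2 difference above 0.

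Ribosome biogenesis genes, around *Urb1*, gave counts that turned on 1 culture. For the large subunit and RNA polymerase I, 40 of 50 genes were above 0 (median log2 difference 0.053), from *Ubtf*, for the polymerase I factor UBF (-0.12 ± 0.12, SE), to *Rpf2* (0.21 ± 0.14). For the small subunit and small nucleolar RNPs it was 41 of 47 (median 0.063), with *Pno1* at 0.22 ± 0.15 and *Fbl*, for fibrillarin, at -0.06 ± 0.13. The median of these lists relative to the WT mean was 0.35 and 0.41 on the log2 scale in Dp1Tyb 2, and between -0.09 and 0.02 in the other 4 Dp1Tyb cultures. Without Dp1Tyb 2, the counts were 16 of 50 (median -0.030) and 16 of 47 (median -0.026), beside a median of -0.011 over all genes. *Urb1* itself was not high in that culture, at 693 normalised counts, and its log2 difference without it was 0.74.

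Among the tested genes for the BTG and TOB family, *Btg3*, the 1 member inside the duplication, had the largest log2 difference. *Btg2*, an immediate early and p53 target gene, was far above *Btg3* in level, with 97.4 ± 38.8 RPKM in WT and 103 ± 29.8 in Dp1Tyb (SD). Its log2 difference was 0.11 ± 0.35 (SE), with a 95% interval of 0.63-fold to 1.85-fold that held the 1.72-fold of *Btg3*. *Btg1*, *Tob2* and *Tob1* had log2 differences of -0.08 ± 0.1, -0.13 ± 0.1 and -0.18 ± 0.19 (SE). None of the 5 tested members passed in edgeR or DESeq2, *Btg3* alone had an unadjusted edgeR p below 0.05, and *Btg4*, known from oocytes, had 1 count in total. *Btg3* supplied 3.34% to 5.22% of the summed RPKM of the family in WT (mean 4.04%) and 4.16% to 9.62% in Dp1Tyb (mean 6.5%), ranges that overlapped (exact permutation p = 0.079). Since these proteins restrain proliferation, E2F target and proliferation genes were listed too. All 23 had a log2 difference below 0 (median -0.150), from *Cdc6* (-0.28 ± 0.2, SE) to *Aurka* (-0.03 ± 0.19). Over all 14567 genes, 7422 were above 0. None passed in edgeR or DESeq2 and none had an unadjusted edgeR p below 0.05. The median of these genes relative to the WT mean lay between -0.12 and 0.09 in WT. In Dp1Tyb it lay between -0.53, in Dp1Tyb 4, and 0.11, in Dp1Tyb 1, so the genotypes overlapped. In Dp1Tyb 2, 3 and 5 it was -0.06, -0.22 and -0.08. A median of the log2 differences without Dp1Tyb 4 was not computed.

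Within each genotype, *Paxbp1* and *Btg3* varied in opposite ways between cultures. On the log2 scale, *Btg3* was 0.41 above the mean of its genotype in WT 2 and 0.60 above in Dp1Tyb 2, the cultures in which *Paxbp1* was lowest (-0.30 and -0.36). In WT 1 *Btg3* was lowest (-0.45) and *Paxbp1* highest (0.34). *Urb1* was highest in WT 1 (0.44) and Dp1Tyb 1 (0.27), and *Scaf4* never departed by more than 0.12 from its genotype mean.

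**Figure D5:**
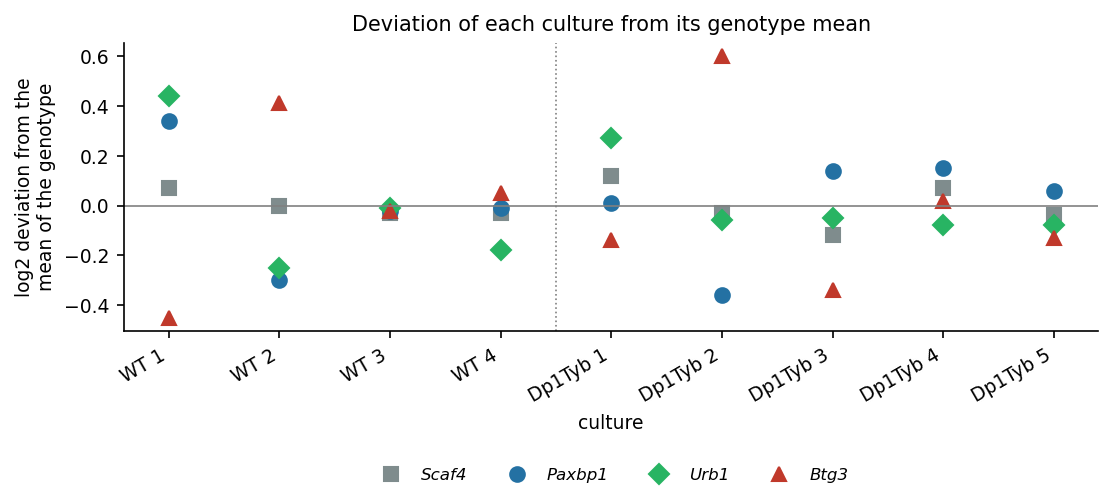
Log2 deviation of each culture from the mean of its genotype (vertical axis) for the 4 genes, with the 9 cultures along the horizontal axis. *Btg3* (triangles) and *Paxbp1* (circles) lie on opposite sides of 0 in WT 1, WT 2 and Dp1Tyb 2, and *Scaf4* (squares) stays within 0.12 of it.

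The genes whose deviations were most like those of each of the 4 were found among 13011 genes with a mean CPM (counts scaled to the library total) of at least 1, by Pearson's r over the 9 cultures, which share the deviations of the same few libraries. For *Btg3* they were *Hspb1* (r = 0.995) and *Bag2* (0.994), for a small heat shock protein and an Hsp70 co-chaperone, and *Polr3d* (0.995), for a subunit of RNA polymerase III. *Hspb1* had 802, 2025, 1383 and 1371 normalised counts in WT cultures 1 to 4, and 1114, 2725, 935, 1375 and 1230 in Dp1Tyb cultures 1 to 5. It was high in the same 2 cultures as *Btg3*, but unlike *Btg3* its genotypes overlapped (log2 difference 0.08). For *Paxbp1* they were *Six5* (0.990), *Tmed8* (0.987) and *Col26a1* (0.987). *Six5*, a homeobox gene, ran from 248 in Dp1Tyb 2 to 565 in WT 1. For *Urb1* they were *S1pr2* (0.992), for a sphingosine-1-phosphate receptor, *Elf4* (0.972) and *Chrm3* (0.971), and for *Scaf4* they were *Arl10* (0.964), *Sorcs1* (0.959) and *Ppp2r3a* (0.945). None of the 12 lies on chromosome 16, and each had an edgeR adjusted p of 1. They were picked as the highest among 13011 genes over only 9 cultures, so their r is high by selection and was not tested.

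Marker genes of other cell types were set beside these results. All 12 fibroblast markers passed the filter on low counts, and their sum was 48897 to 66975 CPM in WT and 41734, in Dp1Tyb 2, to 71152 in Dp1Tyb. Macrophage markers (8 of 8 tested) summed to 60.7 to 228 in WT and 17.2 to 318 in Dp1Tyb. Skeletal muscle markers (4 of 8 tested) summed to 8.76 to 17.6 in WT and 16 to 40.5 in Dp1Tyb, with the defining factors *Myod1*, *Myog* and *Myf5* at or under 3 counts in every culture. Schwann and neural crest markers (5 of 6 tested) were lower in Dp1Tyb, with 30.7 to 66 in WT and 9.63 to 29.8 in Dp1Tyb. These ranges came close without overlapping. The share of all genes with all Dp1Tyb values below all WT values was not computed. Endothelial markers (3 of 5 tested) summed to 7.27 to 15.1 and 5.42 to 19.1, epithelial markers (3 of 6) to 9.24 to 21.7 and 8.34 to 12.5, and chondrocyte markers (4 of 5, *Matn1* at or under 3 counts) to 31.8 to 58.2 and 27.5 to 56.9. No marker passed the test in edgeR, where 10 of the 39 tested were below 0.05 before adjustment. Over all 14567 genes tested, 456 were. DESeq2 by default called 5 of 49 markers, *Sox10*, *Foxd3* and *Erbb3* lower and the muscle genes *Des* and *Myh3* higher in Dp1Tyb. With its beta prior it called these without *Myh3*. Outside the duplicated region, DESeq2 by default called 0.178% of genes. Of the 5 tested Schwann and neural crest markers, 1, *S100b*, was above 0 (log2 difference 0.15 ± 0.45, SE). *Myh3*, for an embryonic myosin, had 1.04 to 2.04 normalised counts in WT, under the floor, and 3.86 to 30.3 in Dp1Tyb, without overlap. All Dp1Tyb values lay above all WT values for 0.686% of all genes tested. In such bulk samples, fewer cells of a type and less RNA per cell cannot be told apart, and the part of these cells in the levels of *Scaf4*, *Paxbp1*, *Urb1* and *Btg3* was not tested.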

How the data were processed

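RNA sequencing of 9 MEF cultures was analysed, 4 WT and 5 Dp1Tyb, grouped by the genotype in their labels. Per the labels and the methods of the study, libraries were made with a stranded poly(A) kit, and the authors trimmed adapters with Trim Galore, mapped reads to GRCm38 with TopHat2 2.0.12, discarded multi-aligning reads and counted the others per gene with HTSeq. The deposited raw counts are not normalised and entered every test here. The deposited normalised table and the authors' table of fold changes and p-values were not used.

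After removal of low counts with filterByExpr, edgeR 4.0.16 (R 4.3.3) was fitted to the genotypes alone, using TMM factors, its two-sided quasi-likelihood test and Benjamini-Hochberg adjustment over 14567 genes, at a threshold of 0.05. In simulated data of 14394 genes for Dp1Tyb vs WT, this test called 28% of genes changed 1.5-fold and 84% of genes changed 2.0-fold. The simulation changed 100 genes at each fold, drawn from the more abundant genes, and 7 unchanged genes were called. It held no culture sets and more genes at 2.0-fold than a duplication would give, so these shares need not hold for the 4 genes. DESeq2 1.42.0 served as an alternative. Single values were compared by exact permutation tests, two-sided. RPKM was computed from the counts, library totals and union exon lengths from GENCODE M21, which matched 42462 of 43629 rows. Intervals at 95% use the spread between cultures, and floors of 3 counts cover counting error only.

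The 4 genes, the gene lists and the tests were chosen with earlier results of these data known. Named genes are the 4 genes, all tested genes of the lists of RNA genes in the duplication, partners and the BTG and TOB family, the called genes and the 2 highest and 2 lowest of other lists, of which the extremes are printed, the nearest tested gene on each side and the 3 genes of most similar pattern. In the marker lists, sums are printed in their place, and the 5 markers called by DESeq2 by default and *S100b* were named after their values were seen. Deviations were differences of log2 CPM from the mean of the genotype. Alternatives changed the scaling (size factors of DESeq2, or TMM computed outside the region), the tool (DESeq2, by default or with a beta prior), the filter (none, or at least 10 counts per culture), the model (a term for the culture set, or a replicate block) and the cultures (the second set alone, or all but 1).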

Additional observations from a re-analysis of the deposited data

Results flagged for a closer look

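In groups of 4 or 5 cultures, 7 of 60 sets of values held 1 culture far from the others by Dixon's test, which flags about 1 in 20 by chance. Among the 4 genes it was *Urb1* in Dp1Tyb 1, at 872 normalised counts against 686 to 702 in the other Dp1Tyb cultures. Dp1Tyb 2 stood apart for *Mrps6* (1856 normalised counts), *Mrpl39* (1545) and *Wdr5* (1304), and for the ratio of *Btg3* to *Cnot7* (1.45). *Cnot7* itself was low in Dp1Tyb 3, at 1303 normalised counts, and *Btg2* was low in WT 1, at 2693. The flags of *Mrps6*, *Mrpl39* and *Wdr5* fall in the culture with the highest median of ribosome biogenesis genes, and no cause was tested.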

How the results depend on the processing

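The log2 difference of all 4 genes was above 0 in each of the 18 alternatives, and those of *Paxbp1* and *Btg3* passed the test in none. *Scaf4* lost its call with no filter on low counts (log2 difference 0.45), in the second culture set alone (0.45) and with the replicate block (0.46), and lay between 0.43 and 0.48 when each culture was left out. *Urb1* gained a call in DESeq2 by default (0.73), in DESeq2 with its beta prior (0.56) and with a term for the culture set (0.76), and lay between 0.64 and 0.89 when each culture was left out. *Paxbp1* lay between 0.46 and 0.68 and *Btg3* between 0.60 and 0.93 in those fits. The number of the 4 genes called, 1, was 2 in both DESeq2 fits and in the fit with a term for the culture set, 0 with no filter, with the replicate block and in the second set alone, and 0 to 1 with each culture left out. For genes of the duplicated region, 22 called, it was 39 in both DESeq2 fits, 14 with no filter, 0 with the replicate block, 1 in the second set alone and 2 to 23 with each culture left out (2 without WT 2, WT 3 or Dp1Tyb 5). For RNA genes of the duplication, 4 called, it was 7 in both DESeq2 fits, 2 with no filter, 0 with the replicate block and in the second set alone, and 0 to 5 with each culture left out. The 1 call among transcript end genes (*Scaf4*) and the 1 gained among large subunit genes (*Urb1*) moved with those genes, between 0 and 1.

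The replicate numbers give no known pairing. Deviations of same-numbered cultures correlated at 0.259, 0.741, 0.031 and 0.378, so the block was not used, and its fit leaves out Dp1Tyb 5. With the replicate block, as sign flips within 4 pairs, the log2 ratios were 0.48 for *Scaf4* to *Scaf8*, 0.49 for *Paxbp1* to *Tfip11*, 0.62 for *Urb1* to *Urb2* and 0.77 for *Btg3* to *Cnot7*, all above a p of 0.05 since such flips cannot go below 0.12. In the second culture set alone, *Paxbp1* to *Tfip11* (0.61) and *Btg3* to *Cnot7* (0.59) no longer passed. With each culture left out, these ratios ran from 0.46 to 0.50, 0.40 to 0.62, 0.55 to 0.77 and 0.56 to 0.89, and those of *Paxbp1* and *Urb1* were above a p of 0.05 in 7 and 4 of these 9 fits. Between genes, *Scaf4* and *Urb1* differed by -0.38 in the second set, and by -0.41 to -0.20 with each culture left out, past 0.05 without WT 1. The sign of uncalled pair differences turned for *Paxbp1* and *Btg3* (0.01 in the second set, and -0.45 to 0.05, above 0 without WT 1 or Dp1Tyb 2) and for *Urb1* and *Btg3* (0.16, and -0.25 to 0.27, again without those cultures). Apart from smaller numbers of cultures, the cause was not tested.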
